A study of Mus musculus with 8 samples.

Results

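The 10 genes that make up the interferon gamma circuit were followed in CD8+ T cells: the cytokine gene Ifng, the transcription factor genes Tbx21, Eomes and Runx3, the IL-12 receptor genes Il12rb1 and Il12rb2, the IL-18 receptor genes Il18r1 and Il18rap, and the interferon gamma receptor genes Ifngr1 and Ifngr2. Members are the rows with these gene symbols, and all 10 were found among the 49490 genes listed for the Trim28 experiment and the 55291 genes listed for the IL-2 experiment. All 10 passed the filter on low values, which 15415 and 13978 genes passed in all. The cells came from mouse spleens and lymph nodes and were profiled by sequencing of polyadenylated RNA in 2 separate experiments with 2 libraries in each of 4 groups. In the first, Trim28-/- cells were compared with Trim28fl/fl cells, whose Trim28 gene carries flanking recombination sites and which are labelled WT. Both groups were activated in vitro for a time that is not given in the sources used here, and nor are the Cre driver, the age or the strain of the mice. In the second, wild-type cells treated with anti-IL-2 were compared with untreated cells, and both groups were stimulated for 3 days with antibodies to CD3 and CD28. The labels do not say whether the 2 libraries of a group came from separate mice or cultures, so the p-values speak only for how far these libraries vary, and that variation may be technical.

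Interferon gamma is the signature cytokine of activated CD8+ T cells. Its gene is switched on by T cell receptor signals together with IL-12 and IL-18, which reach the cell through heterodimeric receptors, and by the transcription factors T-bet (Tbx21), EOMES and RUNX3. IL-12 acts through STAT4, and IL-2, acting through STAT5, is known to raise IL-12 receptor expression and to promote T-bet and interferon gamma in T cells. The secreted cytokine binds a receptor of IFNGR1 and IFNGR2 chains, which signals through JAK1 and JAK2 to guanylate-binding proteins, immunity-related GTPases and antigen presentation genes. TRIM28 is a co-repressor that zinc finger proteins recruit to chromatin.

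Recovered reads numbered between 13222831 and 13469789 per library in the Trim28 experiment and between 16618750 and 17069569 in the IL-2 experiment. Trim28 itself had normalised read counts of 415 and 458 in knockout libraries, against 4262 and 4323 in control libraries, so the labels and the targeted gene went together. Whether the remaining reads lie outside the deleted part was not tested. With anti-IL-2 Trim28 had a log2 fold change of 0.49. The IL-2 receptor gene Il2ra had 22025 and 21937 with anti-IL-2, against 44645 and 43661 in untreated cells (-1.01), and -0.15 in the knockout. Il2 itself had -0.80 in the knockout, and it was not called with anti-IL-2 (0.11). How far the antibody blocked IL-2 was not tested. The summed level of 8 CD8 T cell markers lay between 2995 and 3451 CPM (reads scaled to a common total) in the 8 libraries. Of these markers 5 were higher and 2 lower in the knockout, where 32.9% of all genes tested were higher and 28.2% lower. With anti-IL-2 0 were higher and 5 lower, where 31.4% of all genes tested were higher and 28.9% lower. Cd8b1 fell in both experiments (log2 fold change -0.48 in the knockout and -0.54 with anti-IL-2). Cd8a had 0.25 in the knockout and -0.40 with anti-IL-2, and the T cell receptor gene Trac had 0.43 in the knockout. Since these are bulk samples, fewer cells that express a gene and less RNA per cell cannot be told apart.

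The bases before the start of 3 members are shown because their levels moved furthest with anti-IL-2, namely Ifng and Il12rb2, which were lowest there, and Ifngr2, which was highest there. The sequences are RefSeq promoter windows on GRCm38.p6, printed 5′ to 3′ on the gene's strand and ending at the base before the start. Ifng spans chr10:118441046-118445892 on the plus strand and its bases below are chr10:118440796-118441045. Il12rb2 spans chr6:67291318-67376188 on the minus strand and its bases below are chr6:67376189-67376438. Ifngr2 spans chr16:91547072-91565623 on the plus strand, and the bases below, chr16:91546809-91547058, precede the RefSeq start. Capitals mark matches to the STAT palindrome TTCNNNGAA and to the TATA box TATAAA.
Ifng: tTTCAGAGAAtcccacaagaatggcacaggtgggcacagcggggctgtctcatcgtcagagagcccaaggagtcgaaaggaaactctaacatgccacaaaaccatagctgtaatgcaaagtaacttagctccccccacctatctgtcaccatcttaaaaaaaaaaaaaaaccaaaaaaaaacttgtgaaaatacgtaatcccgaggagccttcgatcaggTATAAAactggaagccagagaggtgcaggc
Il12rb2: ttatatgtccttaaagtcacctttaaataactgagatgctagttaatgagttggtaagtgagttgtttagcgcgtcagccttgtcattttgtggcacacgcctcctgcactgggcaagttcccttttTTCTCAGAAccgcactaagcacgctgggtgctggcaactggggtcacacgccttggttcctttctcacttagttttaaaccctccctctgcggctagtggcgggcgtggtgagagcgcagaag
Ifngr2: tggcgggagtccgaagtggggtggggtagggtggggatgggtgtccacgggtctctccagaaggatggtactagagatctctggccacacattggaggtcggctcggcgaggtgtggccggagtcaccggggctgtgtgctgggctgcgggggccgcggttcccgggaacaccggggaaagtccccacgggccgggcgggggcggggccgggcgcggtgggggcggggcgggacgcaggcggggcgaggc
In Ifng the palindrome starts 249 bases before the gene's start and the TATA box 30 bases before it. In Il12rb2 the palindrome starts 123 bases before the start. Windows of 300 bases, from 250 before to 50 after the start, were searched on both strands for 9 of the 10 members in 12 windows, with none listed for Il12rb1. TTCNNNGAA occurred in 8.30% of all 32851 such windows and TATAAA in 13.6%. The most downstream of the 3 windows of Il18r1 held the palindrome in 2 places, and Ifngr2 held neither motif. The RUNX letters TGTGGT, in 16.8% of all windows, occurred in 2 places in the first window of Runx3 and once each in windows of Il18r1 and Il18rap. The T-box letters TCACACC (3.98% of windows) and the AP-1 letters TGANTCA (7.81%) were in none of the 12 windows, and the NFAT letters TTTCC were in 61.3% of all windows. The Ifngr2 window was 74.3% G and C with 31 CpG pairs, the Ifng window 46.0% with 7, and the median of all windows 52.7% with 7. A match describes letters only, and binding was not measured.

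Ifng was strongly lower in both experiments. Its normalised read count was 3147 and 3317 in Trim28 knockout libraries, against 16925 and 16658 in control libraries. Knockout cells held 19.2% of the control level (log2 fold change -2.38, SE 0.032, adjusted p = 1.89e-06 by limma). With anti-IL-2 it was 362 and 375, against 15659 and 15030 in untreated cells. That was 2.401% of the untreated level (log2 fold change -5.38, SE 0.054, adjusted p = 8.19e-23). In each experiment the groups were far apart relative to the spread of their 2 libraries. Ranked by log2 fold change from the lowest, Ifng was number 214 of 15415 genes in the knockout and number 11 of 13978 with anti-IL-2. Its share of all reads was 0.0239% and 0.0251% in the knockout and 0.126% and 0.124% in the control, and 0.00222% and 0.00229% with anti-IL-2 and 0.0905% and 0.0878% in untreated cells. Gm49751, an annotated transcript of uncertain status that shares 336 exon bases with Ifng on the same strand, was listed for the IL-2 experiment at 21.96 and 17.3 with anti-IL-2 and 714 and 685 in untreated cells, and reads of these 2 genes could be split by the counting.

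**Figure D1:**
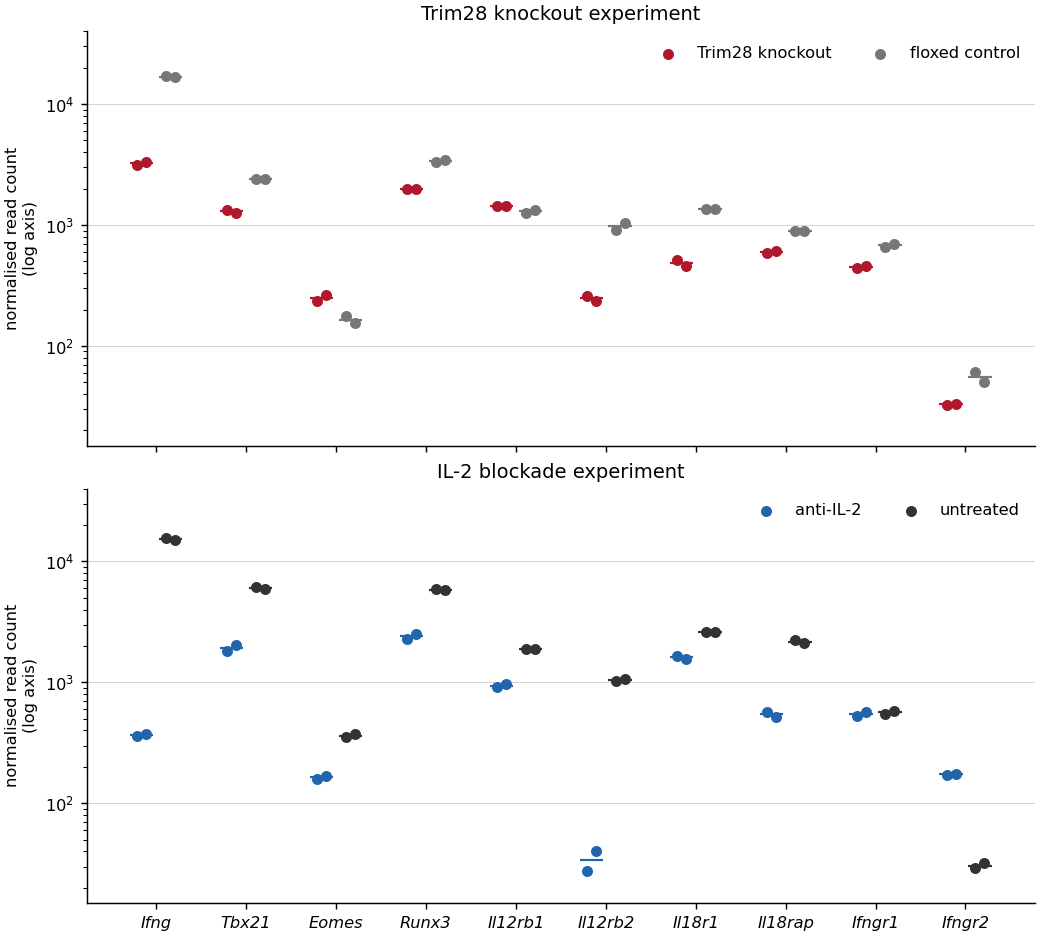
Normalised read counts (log axis) of the 10 genes in each library, with the Trim28 experiment above and the IL-2 experiment below; points are libraries and short lines are means of 2. Ifng lies near 3147 to 3317 in knockout libraries and near 362 to 375 with anti-IL-2, while Ifngr1 points of anti-IL-2 and untreated cells overlap.

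Across the circuit, 8 members fell and 2 rose in the knockout, and 8 fell, 1 rose and 1 was not called with anti-IL-2. Of all genes tested in the knockout 61.0% were called, made up of 32.9% higher and 28.2% lower than in the control. Of those tested with anti-IL-2 60.3% were called, made up of 31.4% higher and 28.9% lower than in untreated cells. The median log2 fold change of the 10 members was -0.75 in the knockout, beside 0.031 over all genes tested, and -1.21 with anti-IL-2, beside 0.018. A fall of at least 1 on the log2 scale was seen in 3 members in the knockout, where 6.91% of all genes tested reached it, and Ifng, Il12rb2 and Il18r1 were those members. With anti-IL-2 7 members lay at least 1 from 0 on this scale, 6 of them lower, where 10.2% of all genes tested fell and 4.92% rose by as much.

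Among the transcription factors, Tbx21 and Runx3 were lower in both experiments and Eomes moved in opposite directions. Tbx21, whose product T-bet directly activates Ifng, had 1333 and 1264 in the knockout, against 2407 and 2393 in the control (log2 fold change -0.89, SE 0.038, adjusted p = 2.44e-05). With anti-IL-2 it had 1822 and 2032, against 6130 and 5920 in untreated cells, 32.0% of their level (log2 fold change -1.65, SE 0.057, adjusted p = 9.50e-15). In both experiments every library of the altered cells lay below every library of its comparison group. Runx3, the factor that silences Cd4 and sustains the cytotoxic programme, had 1977 and 1989 in the knockout, against 3329 and 3437 in the control (log2 fold change -0.77, SE 0.031, adjusted p = 2.07e-05). It had 2303 and 2488 with anti-IL-2, against 5866 and 5809 in untreated cells (-1.29, SE 0.053, adjusted p = 1.30e-13). Again the groups did not overlap. Eomes, the T-box factor linked to memory cells, was higher in the knockout at 237 and 263, against 175 and 155 in the control (0.60, SE 0.091, adjusted p = 0.00228). Without knockout replicate 2 this call was lost (adjusted p = 0.0657). With anti-IL-2 Eomes was lower at 159 and 169, against 353 and 373 in untreated cells (-1.14, SE 0.10, adjusted p = 1.10e-08).

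The chains of the IL-12 receptor were affected unequally. Il12rb2, the inducible signalling chain that recruits STAT4, had 261 and 233 in the knockout, against 911 and 1038 in the control, which is 25.4% of the control mean (log2 fold change -1.97, SE 0.085, adjusted p = 2.46e-05). With anti-IL-2 it had 27.7 and 40.3, against 1017 and 1074 in untreated cells, which is 3.25% of the untreated mean (-4.93, SE 0.14, adjusted p = 7.02e-16). These anti-IL-2 values rest on 29 and 42 reads, and Il12rb2 was number 21 from the lowest of 13978 genes. Il12rb1, the chain shared with the IL-23 receptor, had 1437 and 1441 in the knockout, against 1262 and 1332 in the control, a small rise (0.15, SE 0.039, adjusted p = 0.0183). DESeq2 did not make that call (adjusted p = 0.297), and it was lost with upper-quartile rescaling (0.162), without a filter (0.0686), without knockout replicate 1 (0.125) or 2 (0.130) and without control replicate 1 (0.0860). With anti-IL-2 Il12rb1 fell to 915 and 965, against 1877 and 1877 in untreated cells (-0.997, SE 0.059, adjusted p = 3.07e-11). Serbp1, on the opposite strand, shares 1519 exon bases with Il12rb2 and no strand information was at hand, so some reads could belong to either. Its level was 12705 and 13149 in the knockout, against 12917 and 12848 in the control, and 17905 and 17381 with anti-IL-2, against 16999.5 and 16967 in untreated cells.

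Both chains of the IL-18 receptor fell in both experiments, but the chain that fell more was not the same. Il18r1, the ligand-binding chain, had 518 and 458 in the knockout, against 1346 and 1352 in the control (log2 fold change -1.47, SE 0.064, adjusted p = 2.54e-05). With anti-IL-2 it had 1664 and 1548, against 2592 and 2612 in untreated cells (-0.70, SE 0.056, adjusted p = 2.81e-09). Il18rap, the accessory chain needed for signalling, had 585 and 607 in the knockout, against 885 and 899 in the control (-0.58, SE 0.042, adjusted p = 0.000125). With anti-IL-2 it had 571 and 518, against 2221 and 2122 in untreated cells (-1.995, SE 0.066, adjusted p = 4.83e-15). No group of either chain overlapped its comparison group. The 2 genes lie next to each other on the plus strand, Il18r1 at chr1:40465552-40500854 and Il18rap at chr1:40515362-40551705.

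The receptor for interferon gamma itself showed the one rise with anti-IL-2. Ifngr2, the chain that limits signalling in T cells and brings JAK2, had 173 and 175 with anti-IL-2, against 29.1 and 31.9 in untreated cells, 5.71-fold higher (log2 fold change 2.48, SE 0.17, adjusted p = 2.23e-10). By log2 fold change it was number 56 from the highest of 13978 genes. The values rest on 181 and 183 reads with anti-IL-2 and on 28 and 31 reads in untreated cells. In the knockout Ifngr2 was instead low, at 32.5 and 33.3, against 60.9 and 50.7 in the control (-0.74, SE 0.15, adjusted p = 0.00616). DESeq2 did not make that call (adjusted p = 0.153), and it was lost without knockout replicate 1 (0.0750) and without knockout replicate 2 (0.0694), and it rests on 33 and 34 reads in the knockout and 60 and 50 in the control. Ifngr1, the ligand-binding chain that brings JAK1, had 438 and 456 in the knockout, against 658 and 702 in the control (-0.60, SE 0.053, adjusted p = 0.000255). With anti-IL-2 Ifngr1 had 530 and 568, against 551 and 577 in untreated cells, and the groups overlapped. Its log2 fold change was -0.039 (95% interval -0.20 to 0.12, adjusted p = 0.678).

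**Figure D2:**
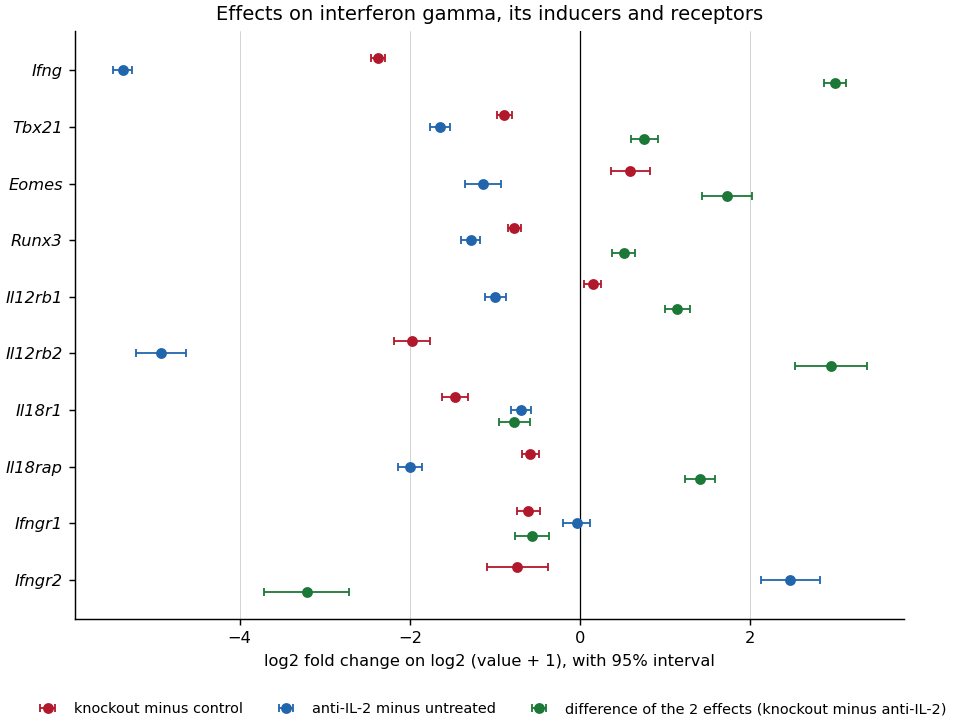
Log2 fold changes of the 10 genes with 95% intervals from limma, for knockout minus control, anti-IL-2 minus untreated, and the difference of these effects. Ifng and Il12rb2 have the lowest values in both experiments, and Ifngr2 is the one member above 0 with anti-IL-2.

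The size of the 2 effects differed for every member. In a fit of all 8 libraries, the log2 fold change in the knockout minus that with anti-IL-2 was called for all 10 members, 7 above 0 and 3 below. Among the 12428 genes tested in this way 41.7% were called, 24.7% above 0 and 17.0% below. The difference was 3.00 for Ifng (SE 0.058, adjusted p = 3.68e-12) and 2.95 for Il12rb2 (SE 0.19, adjusted p = 1.29e-07), both of which fell further with anti-IL-2. It was 1.74 for Eomes (adjusted p = 5.98e-07) and 1.15 for Il12rb1 (adjusted p = 4.23e-08), whose effects had opposite signs. The Il12rb1 effect in the knockout was only 0.15, and DESeq2 did not call it. The difference was 1.41 for Il18rap, 0.76 for Tbx21 and 0.52 for Runx3, which also fell further with anti-IL-2. Il18r1 (-0.77), Ifngr1 (-0.57) and Ifngr2 (-3.21, SE 0.23, adjusted p = 3.04e-07) had the lower value in the knockout. The experiments were normalised separately and their activation times are given for 1 of them only, so Trim28 loss against IL-2 blockade and one experiment against the other cannot be told apart in these differences.

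Per exon length the order of the members changed with anti-IL-2. In RPKM, which scales reads to exon length and library total, Ifng was the most abundant member in knockout cells at 189 ± 6.93, in control cells at 966 ± 8.86 and in untreated cells at 688 ± 14.5 (SD, n = 2 libraries each). With anti-IL-2 it was the fourth, at 17.4 ± 0.365, below Tbx21 (47.5 ± 3.45), Runx3 (29.3 ± 1.48) and Il18r1 (20.4 ± 1.13). In the other three groups Tbx21 and Runx3 followed Ifng, and Tbx21 was at 39.5 RPKM in knockout, 71.9 in control and 141 in untreated cells. Ifngr2 was the lowest member in knockout (0.662 RPKM), control (1.103) and untreated cells (0.471), and Il12rb2 was the lowest with anti-IL-2 (0.549). The lengths include bases shared with other genes, 1519 of 3794 in Il12rb2 and 336 of 1295 in Ifng. Levels and places of these members could therefore be shifted. Neighbours in the order had separate libraries except Il12rb2 and Eomes in the knockout and Il12rb2 and Ifngr1 in the control. The remaining members lay between 2.42 RPKM (Eomes with anti-IL-2) and 67.8 RPKM (Runx3 in untreated cells).

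Paired members changed in balance, given here as ratios of RPKM with no test. Tbx21 over Eomes was 9.38 and 8.03 in the knockout, against 22.9 and 25.8 in the control, and 19.1 and 20.1 with anti-IL-2, against 29.0 and 26.5 in untreated cells. Il12rb2 over Il12rb1 was 0.197 and 0.175 in the knockout, against 0.781 and 0.843 in the control. With anti-IL-2 it was 0.0327 and 0.0452, against 0.587 and 0.619 in untreated cells. Both ratios were thus lower in each altered group, without overlap. Exon bases shared by Il12rb2 and Serbp1 could shift the values of Il12rb2 over Il12rb1. Il18r1 over Il18rap went in opposite directions, at 1.24 and 1.06 in the knockout, against 2.13 and 2.11 in the control, and 4.09 and 4.19 with anti-IL-2, against 1.64 and 1.73 in untreated cells. Ifngr1 over Ifngr2 was 17.8 and 18.1 in the knockout, which overlapped 14.3 and 18.3 in the control, and 4.06 and 4.28 with anti-IL-2, against 25.05 and 23.9 in untreated cells.

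**Figure D3:**
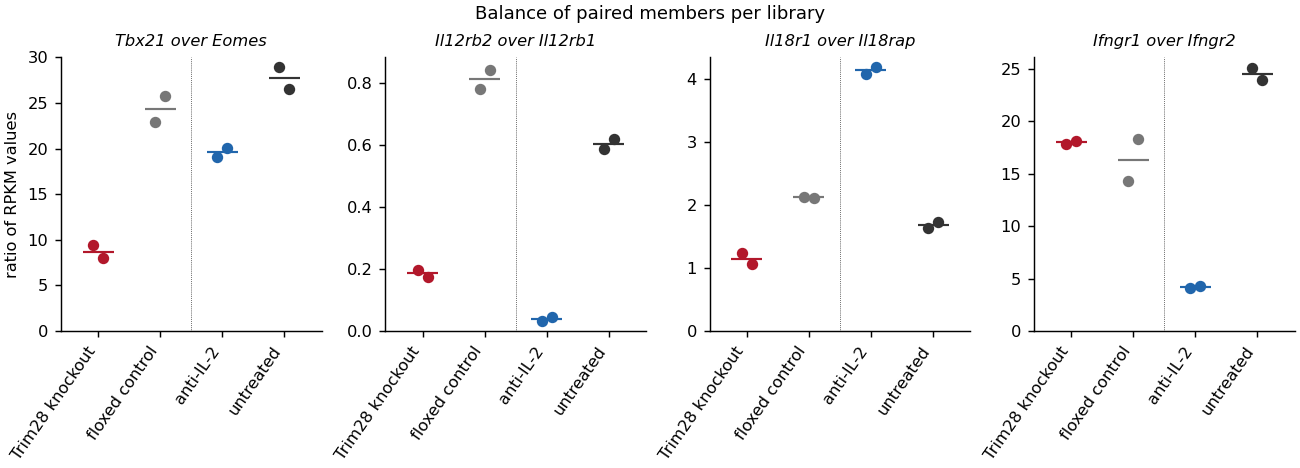
Ratios of RPKM between paired members in each library (points) with the mean of 2 (lines); the dotted line separates the experiments. Il12rb2 over Il12rb1 averages 0.186 in knockout and 0.0389 in anti-IL-2 cells, below 0.812 in control and 0.603 in untreated cells.

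Of 12428 genes measured in both experiments, the 5 nearest to Ifng over the 8 libraries were Dntt, Fhdc1, Plac8, Slc13a3 and Gm4951, by Euclidean distance of log2 values centred within each experiment. Their distances were 0.351, 0.420, 0.435, 0.495 and 0.689, and Il12rb2 came next at 0.733. Plac8 had 162 and 141 in the knockout, against 987 and 963 in the control, and 45.8 and 51.8 with anti-IL-2, against 1791 and 1730.2 in untreated cells. Fhdc1 had 78.8 and 61.8 in the knockout, against 440.2 and 418 in the control, and 10.5 and 10.5 with anti-IL-2, against 549 and 537 in untreated cells. Dntt, which encodes the DNA polymerase of antigen receptor gene rearrangement, had 13.8 and 17.6 in the knockout, against 100.4 and 81.1 in the control. With anti-IL-2 Dntt had 0.955 and 0.959, which is 1 read in each library, against 88.3 and 93.7 in untreated cells. Slc13a3 was also low, at 2.86 and 1.92 with anti-IL-2, against 113 and 107 in untreated cells, and Gm4951 was listed at 0 with anti-IL-2, against 27.0 and 27.8 in untreated cells. In the IL-2 experiment Dntt, Slc13a3 and Gm4951 passed the filter through untreated libraries only. Their distances to Ifng depend on the 1 added before taking logs, and the ranking was not repeated with another added value. Other members were much further away, with Il18rap in place 414, Tbx21 in place 487 and Ifngr2 in place 12343.

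**Figure D4:**
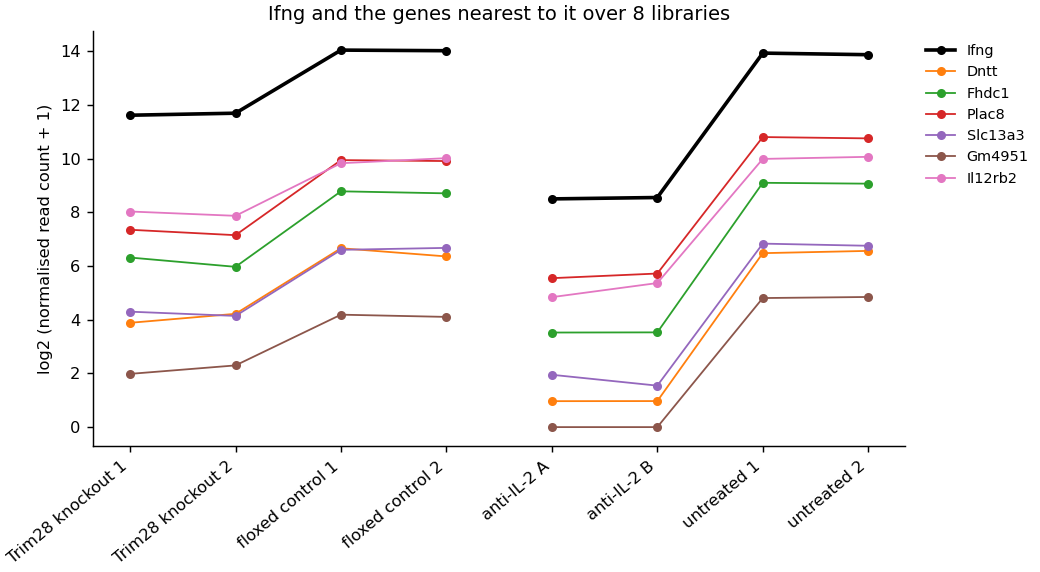
Log2 (normalised read count + 1) of Ifng, the 5 genes nearest to it and Il12rb2 in the 8 libraries, joined within each experiment. Heights of different genes are not scaled for length; each line is lower in knockout than in control libraries and lowest with anti-IL-2.

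Genes that interferon gamma induces were mostly lower in both experiments. For this and the gene groups that follow, 28.2% of all genes tested fell and 32.9% rose in the knockout. With anti-IL-2 28.9% of all genes tested fell and 31.4% rose. In the knockout 24 of 28 tested genes fell and 3 rose (Tap2, Psmb10 and Gbp5), with a median log2 fold change of -0.85 beside 0.031 over all genes. With anti-IL-2 23 of 28 fell and 3 rose (Psmb8, Psmb10 and Gbp5), with a median of -0.90 beside 0.018, and 1 rose without untreated replicate 2. Gbp2, a guanylate-binding protein of cell-autonomous defence, had 2447 and 2572 in the knockout, against 13800.3 and 14056 in the control (-2.47, SE 0.033, adjusted p = 1.82e-06). With anti-IL-2 Gbp2 had 2992 and 3095, against 14530.1 and 14305 in untreated cells (-2.24, SE 0.048). Irgm1, an immunity-related GTPase, had a log2 fold change of -1.99 in the knockout and -2.60 with anti-IL-2, and the related Iigp1 had -2.25 and -2.68 in the same 2 comparisons. Members of these families share sequence, so reads could be split between them. In the test of the difference, 12 of 28 induced genes had a knockout effect above the anti-IL-2 effect and 7 had one below. Among all genes tested in this way 24.7% lay above and 17.0% below. The median difference of the induced genes was 0.074, beside 0.053 over all genes. Ciita, Cxcl11, Ido1 and Serping1 were too low to be tested in either experiment. Some of these genes, such as Irf1 and Socs1, are also counted in the next group.

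The relay below the interferon gamma receptor and its brakes moved unevenly. In the knockout 8 of 14 genes were lower and 4 higher, where 28.2% and 32.9% of all genes tested were. With anti-IL-2 8 were lower and 2 higher, where 28.9% and 31.4% of all genes tested were. The medians of the 14 genes were -0.18 in the knockout, beside 0.031 over all genes, and -0.23 with anti-IL-2, beside 0.018. DESeq2 called 5 lower in the knockout. Socs3, an inhibitor of cytokine signalling induced through STAT proteins, had 291 and 302 in the knockout, against 794 and 747 in the control (log2 fold change -1.37, SE 0.053, adjusted p = 1.92e-05). With anti-IL-2 Socs3 had 58.2 and 37.4, against 690 and 587 in untreated cells (-3.74, SE 0.16, adjusted p = 2.07e-13). Irf1, an early target of interferon gamma, fell by 0.88 on the log2 scale in the knockout (adjusted p = 2.54e-05). Ptpn6, the phosphatase SHP-1, rose in both, by 0.67 in the knockout and by 0.92 with anti-IL-2.

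In the relay from the IL-12 and IL-18 receptors 11 of 19 tested genes fell and 4 rose in the knockout, and 9 of 18 fell and 5 rose with anti-IL-2. The number that rose depended on the setting. It was 2 in the knockout without either knockout replicate, and with anti-IL-2 it was 3 under DESeq2 and with upper-quartile scaling or rescaling, 2 with no filter on low values or without untreated replicate 2, and 1 without untreated replicate 1. Stat4, the transducer of IL-12, had 2002 and 1978 in the knockout, against 4183 and 4258 in the control (log2 fold change -1.08, SE 0.028, adjusted p = 6.31e-06). With anti-IL-2 Stat4 had 1630.5 and 1554, against 2461 and 2372 in untreated cells (-0.60). Gadd45g, which links IL-12 and IL-18 to p38 kinase, fell in both, at -0.92 in the knockout and -1.09 with anti-IL-2. The medians of this group lay below those of all genes, at -0.19 in the knockout, beside 0.031, and -0.17 with anti-IL-2, beside 0.018. Of the cytokines themselves, Il12b was listed at 0 in all 8 libraries, and Il18 had 8.86 and 10.8 in the knockout, against 25.4 and 22.3 in the control, and 8.59 and 9.59 with anti-IL-2, against 42.6 and 53.6 in untreated cells. DESeq2 did not call Il18 in the knockout (adjusted p = 0.146).

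Among 34 other tested regulators of Ifng transcription, 18 fell and 12 rose in the knockout, and 24 fell and 6 rose with anti-IL-2. Runx2, a relative of Runx3, had 490 and 495 in the knockout, against 1331 and 1346 in the control (log2 fold change -1.44, SE 0.038, adjusted p = 6.31e-06). Twist1, which restrains interferon gamma in T helper 1 cells, fell by 1.28 on the log2 scale in the knockout, and Stat5a, the transducer of IL-2, rose by 0.69. With anti-IL-2, Ikzf3 (-1.80), Id2 (-2.14), Zbtb32 (-1.48) and Jun (-1.54) had the smallest adjusted p-values. Id2, an inhibitor of E proteins that sustains effector cells, had 295 and 311 with anti-IL-2, against 1333 and 1339 in untreated cells (SE 0.071, adjusted p = 5.68e-15). The group's median was -0.18 in the knockout and -0.61 with anti-IL-2. Regulators that promote Ifng and regulators that restrain it are pooled here, so these counts and medians give no direction of regulation.

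Genes known to be regulated by T-bet, EOMES or RUNX3 fell in 12 of 17 tested cases and rose in 4 in the knockout (median -0.48), and fell in 17 of 18 and rose in 1 with anti-IL-2 (median -1.65). This group pools genes that the factors activate with genes that they repress, such as Cd4 and Il7r. Its counts and medians therefore do not measure the activity of the factors. Gzmb, the killing protease granzyme B, had 404.8 and 415 with anti-IL-2, against 26683 and 25897 in untreated cells (log2 fold change -6.00, SE 0.051, adjusted p = 8.32e-24), and -1.52 in the knockout. Il7r, the receptor of the survival cytokine IL-7, which T-bet represses, was lower in the knockout at 144 and 144, against 1079 and 1046 in the control. The 4 genes that rose in the knockout were Cxcr3, Cd8a, Ccr7 and Itgae, and Cx3cr1 rose with anti-IL-2, at 12.4 and 20.1, against 6.24 and 7.21 in untreated cells. None rose with anti-IL-2 under DESeq2, with no filter, or without anti-IL-2 replicate B or untreated replicate 1. In the test of the difference, 13 of 17 genes of this group had a knockout effect above the anti-IL-2 effect and 2 had one below. Of all genes tested in this way, 24.7% lay above and 17.0% below.

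**Figure D5:**
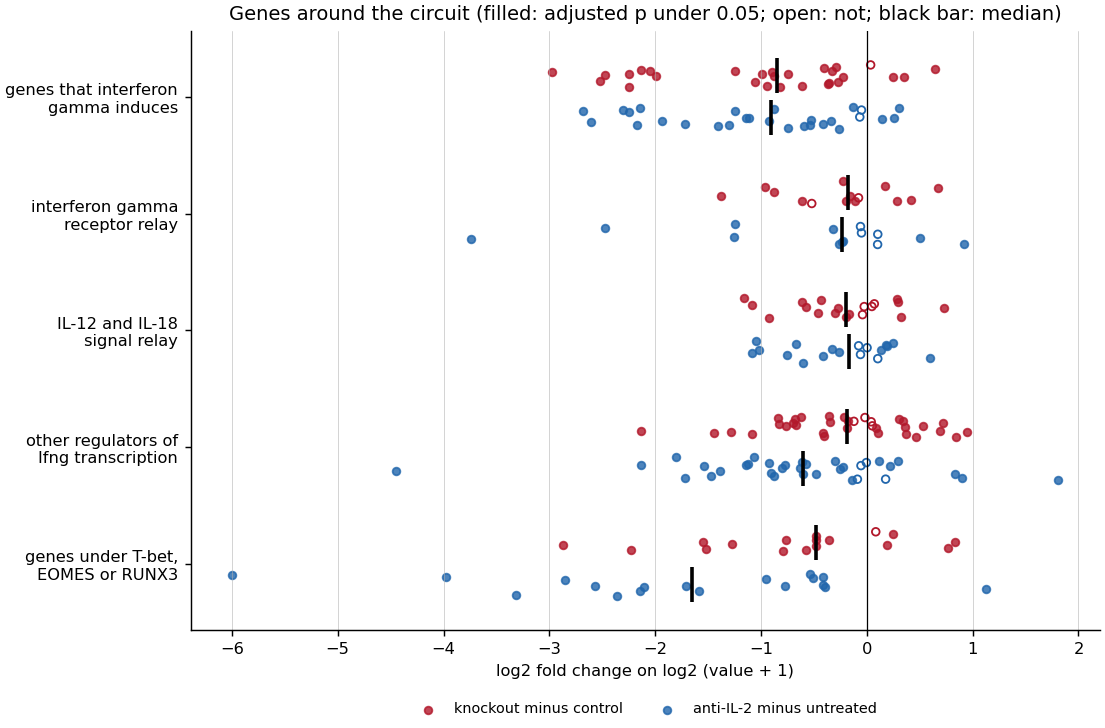
Log2 fold changes of single genes in 5 groups around the circuit, knockout minus control above and anti-IL-2 minus untreated below in each pair; filled points passed an adjusted p of 0.05, and black bars are medians. Genes that interferon gamma induces have medians of -0.85 and -0.90, and genes regulated by T-bet, EOMES or RUNX3 have -0.48 in the knockout and -1.65 with anti-IL-2.

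Natural killer and innate lymphocytes also make interferon gamma. Of their markers, Ncr1, Klra8 and Klra9 were listed at 0 in all 8 libraries, while Fcer1g lay between 0.117 and 0.605 CPM. Klrb1c had 0.448 and 0.371 CPM in the knockout, against 0.226 and 0 in the control. With anti-IL-2 Klrb1c had 0.117 and 0.0586 CPM, against 0.240 and 0.241 in untreated cells. The summed level of 11 such markers was 4.18 and 4.90 CPM in the knockout, against 17.4 and 16.1 in the control, and 3.70 and 2.81 with anti-IL-2, against 18.3 and 16.1 in untreated cells. Most of it was Klri2, the one tested marker, which fell by 2.02 in the knockout and by 2.59 with anti-IL-2 on the log2 scale. Its part in the fall of Ifng was not tested. CD4 T cell markers summed to 44.2 and 45.0 CPM in the knockout, against 53.9 and 54.4 in the control, and to 104 and 108 with anti-IL-2, against 62.1 and 55.9 in untreated cells. Of the 7, 2 rose and 2 fell in each experiment, and Il4 was listed at 0 in both the knockout and the control. Gamma delta T cells are another source of interferon gamma, and their markers summed to 5.52 and 5.94 CPM in the knockout, against 1.81 and 1.66 in the control, where 3 of the 6 markers were listed. With anti-IL-2 they summed to 3.40 and 3.34 CPM, against 3.18 and 3.01 in untreated cells. Trdc, the constant region of the delta receptor chain and the one tested marker, had 68.9 and 73.5 normalised reads in the knockout, against 24.3 and 22.3 in the control (log2 fold change 1.57, SE 0.13, adjusted p = 0.000231). Its part in the results was not tested. Markers of B cells summed to 0.672 and 0.594 CPM in the knockout, against 2.64 and 2.72 in the control, and to 3.29 and 3.22 with anti-IL-2, against 2.52 and 2.11 in untreated cells. Myeloid markers, mainly Cd68, were lower in both altered groups, at 11.0 and 11.95 in the knockout, against 19.3 and 22.4 in the control, and 5.87 and 5.57 with anti-IL-2, against 20.9 and 21.6 in untreated cells, and their part in the results was not tested. Of 10 housekeeping genes, 4 rose and 4 fell in the knockout and 5 rose and 4 fell with anti-IL-2, where 3 rose with no filter. Single genes moved further, with log2 fold changes in the knockout of 1.14 for Actb, -0.68 for Pgk1 and -0.90 for B2m. With anti-IL-2 they were 0.50 for Actb, -1.11 for Pgk1 and -0.93 for B2m. B2m is also counted among the genes that interferon gamma induces. The medians of the 10 housekeeping genes were 0.029 in the knockout and 0.11 with anti-IL-2. The knockout median was -0.049 with upper-quartile rescaling and below 0 with DESeq2 and all edgeR scalings.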

How the data were processed

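The authors trimmed, aligned and normalised reads with tools that the submitters' processing notes list as DESeq2, HISAT2 2.2.1, Trim Galore 0.4.4 and StringTie 2.1.4, on mm10, and the counting annotation, strand setting and filters are not given in the sources used here. The deposited values per library are a normalised signal, that is gene read counts divided by size factors within each experiment, and 100% of them were whole reads within a tolerance of 0.001 once divided by the value of 1 read. The authors' deposited log2 fold changes, coded control over treated, and adjusted p-values were compared only. Genes reaching 10 in 2 or more libraries were tested on log2 (value + 1), a scale that understates the change of low genes, with limma 3.58.1 (mean-variance trend, two-sided, R 4.3.3). P-values were adjusted by Benjamini-Hochberg over all genes tested and called under 0.05. The difference of effects used 1 fit of 8 libraries. With 2 against 2 libraries an exact permutation test cannot go below 0.333. EdgeR 4.0.16 (quasi-likelihood) and DESeq2 1.42.0 on recovered reads were alternatives. Positions and lengths came from GENCODE on GRCm38 and promoter windows from RefSeq. The code was tested on simulated data. The 10 members and 16 gene lists were chosen with earlier results of these data known. Named genes were the members, up to 4 genes per list and comparison with the smallest adjusted p, and the 5 nearest to Ifng; others were chosen after their values were seen.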

Additional observations from a re-analysis of the deposited data

Results flagged for a closer look

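The effect of Trim28 loss and that of anti-IL-2 differed for each of the 10 members when the difference was tested in 1 limma fit of all 8 libraries. The knockout log2 fold change minus the anti-IL-2 log2 fold change was 3.00 for Ifng, 2.95 for Il12rb2, 1.74 for Eomes, 1.41 for Il18rap, 1.15 for Il12rb1, 0.76 for Tbx21 and 0.52 for Runx3. It was -3.21 for Ifngr2, -0.77 for Il18r1 and -0.57 for Ifngr1. Of all genes tested 41.7% were called in this test. Experiment and treatment cannot be told apart in these values.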

How the results depend on the processing

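Of 448 recomputed log2 fold changes of members, 436 kept their direction and their side of the threshold, 11 lost their call and 1 changed sign. Ifngr1 with anti-IL-2, which was not called, was 0.010 without anti-IL-2 replicate A, and leaving out 1 library gave -0.089 to 0.010. Members called higher in the knockout numbered 1 in place of 2 with DESeq2, with edgeR and upper-quartile scaling, without a filter and with upper-quartile rescaling, and 0 to 2 when 1 library was left out, because Il12rb1 and once Eomes lost their call. Under DESeq2 2846 genes were called higher and 2660 lower in the knockout, in place of 5065 and 4344. Leaving out 1 library gave 3212 to 4103 higher and 2787 to 3193 lower. With a replicate block 4881 genes were called higher and 4197 lower and no member's call changed. The deviations of knockout and control replicate 1 correlated at 0.0127 over 15415 genes. With 2 libraries per group this is 1 value, so it cannot tell whether same-numbered libraries share an origin. The anti-IL-2 columns carry no replicate number. The authors' deposited table gave adjusted p-values of 0.164 for Ifngr2 and 0.0886 for Il12rb1 in the knockout. Ifngr2 in the knockout was too low for the filter at a mean of 50. Depth limits Ifngr2 and, with anti-IL-2, Il12rb2, which rest on between 28 and 42 reads in their lower group.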

Other observations

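Genes beside Ifng on chromosome 10 moved in both directions. Of 7 tested neighbours, 3 fell and 2 rose in the knockout, where 28.2% of all genes tested fell and 32.9% rose. With anti-IL-2 3 fell and 3 rose, where 28.9% of all genes tested fell and 31.4% rose. Mdm2, the p53 ubiquitin ligase gene, had the smallest adjusted p in both, with log2 fold changes of -0.51 in the knockout and -0.70 with anti-IL-2. Nup107, a nuclear pore gene, rose by 0.31 in the knockout and by 0.73 with anti-IL-2, and in the knockout its adjusted p was 0.0528 once knockout replicate 2 was left out. DESeq2 also called 1 neighbour higher in place of 2 in the knockout. The IL-10 family gene Il22 lay at or near 0 throughout.

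Beside Il18r1 and Il18rap on chromosome 1, all 5 tested neighbours fell in the knockout, where 28.2% of all genes tested did. With anti-IL-2 3 of 5 fell, where 28.9% of all genes tested did. DESeq2 called 3 lower in the knockout, where Il1r2 had an adjusted p of 0.164. With anti-IL-2 the alternatives called 1 to 4 lower, with 2 under DESeq2 and without untreated replicate 1, and 1 with no filter on low values. Il1rl1, the receptor of IL-33, had 47.3 and 45.1 in the knockout, against 192 and 237 in the control, and 45.8 and 36.4 with anti-IL-2, against 341 and 325 in untreated cells. Its log2 fold changes were -2.18 (SE 0.12) and -3.00 (SE 0.15). Of 19 other cytokine receptors, 11 fell and 6 rose in the knockout, where 28.2% of all genes tested fell and 32.9% rose. With anti-IL-2 8 fell and 4 rose, where 28.9% of all genes tested fell and 31.4% rose. With anti-IL-2, 5 fell with no filter, and 2 rose under DESeq2 and without either untreated replicate. Il1r1, Il1r2, Il1rl1 and Il1rl2 belong both to these receptors and to the neighbours above, so the counts of these groups share genes. Il2rb, a signalling chain of the IL-2 receptor, had 3432 and 3557 with anti-IL-2, against 10555 and 10427 in untreated cells (-1.59, SE 0.049).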
